A study of Mus musculus with 24 samples.

Results

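Skeletal muscle and gonadal white fat (gWAT) of New Zealand Obese (NZO) mice were compared gene by gene. The groups were the 4 NZO muscle arrays and the 4 NZO gWAT arrays, 8 of the 24 arrays of a study of 2 inbred strains and 3 tissues, and they were chosen by their titles. All mice were males on a diet with 45% fat. The protocols give 6 weeks as the age of the animals, and the design text gives week 6 as the end of feeding. NZO, labelled NZO/HiBomDife, is an inbred strain that becomes obese and prone to diabetes on such diets. The 4 muscle and 4 gWAT arrays of the lean strain C57BL/6 (B6), males on the same diet, served for a comparison of the tissue difference between strains. Whether the samples of a group are from different animals is not stated in the labels, and a p-value here measures only the spread between these samples, which may be technical. Each array held 1 RNA labelled with the dye Cy3, and a level is the log2 of the processed spot signal minus the log2 of the 75th percentile of its array. A difference is NZO muscle minus NZO gWAT on this scale, so that 1 unit is a doubling.

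A skeletal muscle fibre is a fused cell filled with sarcomeres, in which myosin motors of the thick filament pull on actin thin filaments when calcium leaves the sarcoplasmic reticulum. Fibres buffer ATP with phosphocreatine and draw on glycogen and on fatty acids burned in mitochondria. White adipocytes store triglyceride in a single large lipid droplet, release fatty acids on adrenergic signals, and secrete hormones such as leptin and adiponectin. In obesity gonadal fat is known to gather macrophages and other immune cells. In bulk tissue, fewer cells of a type and less RNA per cell cannot be told apart.

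The array reads each gene with probes of 60 bases, and the probes of 4 genes that separate the tissues are shown with the positions the files give on mm9. The Acta1 probe (skeletal alpha-actin, chr8:126416197-126416256, minus strand) and the Adipoq probe (adiponectin, chr16:23157576-23157635, plus strand) each lie in 1 uninterrupted stretch. The Ucp1 probe, for the uncoupling protein of brown fat, lies at chr8:85821788-85821847 on the plus strand. The Ckm probe (muscle creatine kinase, plus strand) starts at chr7:20002222 and ends at chr7:20004829, a span of 2608 bases for 60 bases of probe.
Acta1: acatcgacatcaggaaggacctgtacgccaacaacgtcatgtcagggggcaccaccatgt
Ckm: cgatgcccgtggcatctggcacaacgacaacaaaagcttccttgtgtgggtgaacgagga
Adipoq: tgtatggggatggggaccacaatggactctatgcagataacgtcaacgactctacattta
Ucp1: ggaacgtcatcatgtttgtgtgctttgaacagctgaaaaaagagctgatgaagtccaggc

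The arrays separated cleanly by tissue. Across probes, arrays of the same tissue correlated at 0.971 to 0.985 and arrays of different tissues at 0.898 to 0.92, both as descriptions. The 75th percentile of the signal was 163.5 to 204.6 units in muscle and 237.8 to 346.3 in gWAT, and 52.6 to 58.5% of probes were well above background on these 8 arrays. No probe was saturated on any array. The fibre markers separated muscle from fat: the signals of 9 tested markers summed to 8120 to 9140 times the 75th percentile in muscle and to 6.3 to 11.6 times in gWAT. The adipocyte markers did the opposite, with a sum over 10 markers of 2190 to 3280 in gWAT. This sum was also 155 to 305 in muscle, highest on muscle array 003 and lowest on array 011. The sum over 8 liver genes ranged from 14.6 to 208 among the muscle arrays and from 120 to 211 among the gWAT arrays.

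**Figure D1:**
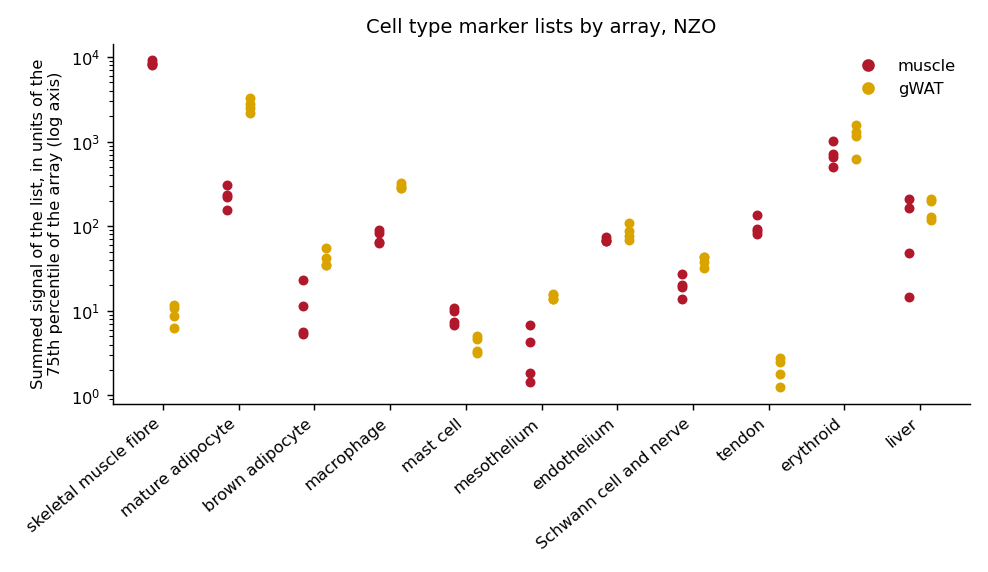
Summed signal of 11 cell type marker lists on the 8 NZO arrays, in units of the 75th percentile of the array, on a log axis; each point is 1 array. Fibre and tendon markers were higher on all 4 muscle arrays, adipocyte, macrophage and mesothelial markers on all 4 gWAT arrays, and the erythroid and liver sums overlapped between the tissues.

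The tissues differed at most genes. Of 21796 genes tested with limma, 14805 (67.9%) had a Benjamini-Hochberg adjusted p under 0.05, here "called". Of all tested genes, 36.3% were higher in muscle (7906) and 31.7% lower (6899). A difference of at least 4-fold was reached by 18.1% of the tested genes, 2031 of them higher (9.32%) and 1908 lower (8.75%). For 62.3% of genes the 4 muscle values did not overlap the 4 gWAT values. The median difference over all genes was 0.11. Centring each array on its median in place of its 75th percentile moved every difference down, by 0.46 in the median of all genes, and the share of calls that were higher in muscle went from 53.4% to 33.4%. The medians of the lists below kept their sign under median centring and quantile normalization, except those of the energy buffer, fatty acid oxidation, endothelial and liver lists. Calls of small differences that the scaling ends are named beside them. The largest changes lay on the muscle side: 680 called genes were at least 16-fold higher in muscle by the fit and 279 at least 16-fold lower.

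Differences were large in the contractile apparatus. Among called genes well above background on all 8 arrays, the 8 with the highest differences were Tnnt3 (14.41, fast troponin T), Mybpc2 (13.73, fast myosin binding protein C), Myh4 (13.51), Tcap (13.32), Actn3 (13.17), Mb (12.98, myoglobin, the oxygen store of fibres), Myoz1 (12.83) and Myh8 (12.27). Tcap (telethonin), Actn3 (alpha-actinin 3) and Myoz1 (myozenin 1) belong to the Z-disc, where thin filaments are anchored.

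Myh4, the heavy chain of fast glycolytic fibres, had levels of 9.84, 10.11, 10.04 and 9.95 on muscle arrays 009, 011, 003 and 007 and of -3.05, -4.48, -4.53 and -2.07 on gWAT arrays 009, 012, 003 and 007. The muscle values lay close together, the gWAT values spread more widely, and the groups were far apart (difference 13.51 ± 0.51 SE, adjusted p = 1.031e-07). Tnnt3 stood at 10.26, 10.42, 10.35 and 10.32 in muscle and at -4.12, -4.21, -4.60 and -3.37 in gWAT. Acta1, the actin of skeletal thin filaments, stood at 10.62, 10.79, 10.63 and 10.90 in muscle and at 3.24, 2.09, 2.78 and 2.96 in gWAT. Like Myh4 and Tnnt3, Acta1 was well above background on all 4 gWAT arrays, and its difference was 7.97 ± 0.23.

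Myh1 and Myh2, heavy chains of other fast fibres, were higher in muscle by a fitted 14.35 ± 0.29 and by 12.02 ± 0.37, with Myh1 well above background on 1 of the 4 gWAT arrays, so that its fitted value is no measured size. Myh7, the slow heavy chain, had levels of 6.15, 5.03, 4.52 and 5.36 in muscle, the highest on array 009, and was higher by 8.40 ± 0.39. Genes of the embryonic (Myh3) and perinatal (Myh8) heavy chains also passed. Their probes are shown because these genes are close paralogs. The best ungapped alignment of the 2 probes covers 48 bases, of which the 29 identical ones (60.4%) are in capitals. Cross-hybridisation between myosin genes was not tested.
Myh8: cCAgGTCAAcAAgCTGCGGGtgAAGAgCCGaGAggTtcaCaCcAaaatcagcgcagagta
Myh3: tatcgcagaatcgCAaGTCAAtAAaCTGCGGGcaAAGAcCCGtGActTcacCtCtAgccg
The Myh3 signal was -1.21 to 0.26 in muscle and not well above background on any gWAT array, which gives at least 24.95-fold. The other pairs among the probes of Myh1, Myh2, Myh3, Myh4 and Myh8 matched at 34.9 to 44.7% of the aligned bases. Aligning probes with each other cannot show whether a probe reads the transcript of a sister gene. Each myosin heavy chain value is uncertain to the extent that its probe does so.

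Of 22 myosin chains and binding proteins, 20 were higher and 2 lower in muscle, with a median of 8.65, or 7.83 with genes below background in gWAT set at their bound. The 2 lower genes were Myh9 (-1.32 ± 0.16, adjusted p = 0.0001338, nonmuscle myosin heavy chain) and Myl6 (-2.08 ± 0.17, the light chain of nonmuscle and smooth muscle myosin). A second probe of Myh9 gave 1.74, and the mean of both was 0.21 (adjusted p = 0.6586). Of 15 thin filament genes, 14 were higher, with a median of 8.13. The exception was Tpm3 (-1.84 ± 0.15), a tropomyosin gene with muscle and nonmuscle transcripts, whose other probes gave 3.51 to 7.90, and by the mean of its probes the gene was higher in muscle by 3.19. All 24 sarcomere scaffold genes were higher, and 13 of them were well above background on all 8 arrays. Their median was 10.03, or 9.43 at the bounds and 6.68 with normexp, a model-based background correction. The 24 genes ranged from Dysf (1.33 ± 0.11), the membrane repair protein dysferlin, to Ttn. Ttn encodes titin, the spring that spans the sarcomere from its end to its middle. It was not well above background on any gWAT array and gave at least 6632-fold. Myot (myotilin, a Z-disc protein) gave at least 6961-fold.

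**Figure D2:**
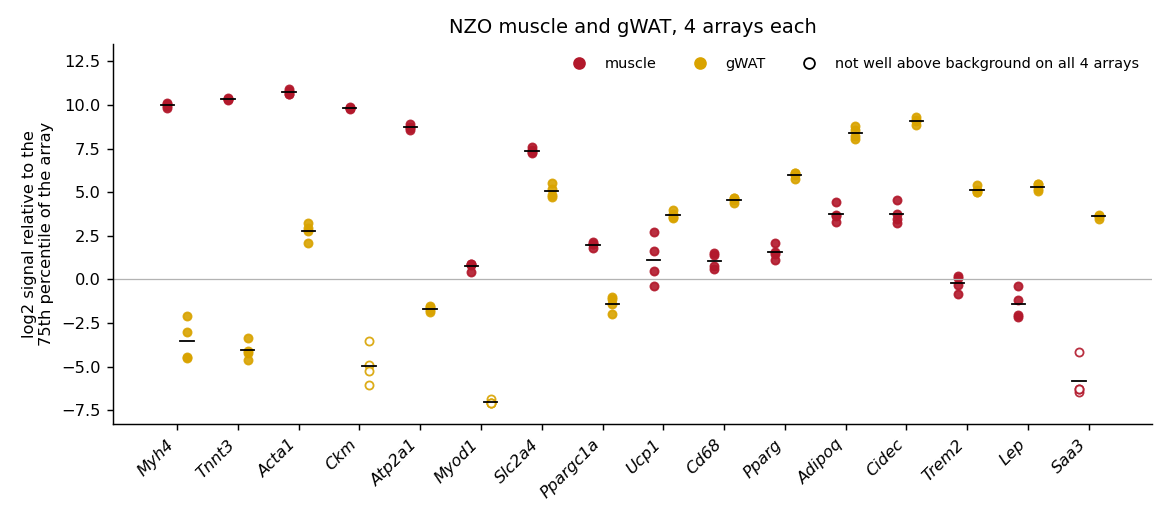
Levels of 16 genes on the 4 NZO muscle and 4 NZO gWAT arrays, as log2 signal minus that of the 75th percentile of each array; points are arrays, bars are means, and open points mark a tissue in which the probe was not well above background on all 4 arrays. The groups do not overlap for any of these 16 hand-picked genes, nor for 62.3% of all genes tested. Among the 16, Ucp1 has the widest spread in muscle, from -0.40 to 2.72.

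Calcium handling and the membrane of the fibre followed. All 17 tested calcium genes were higher in muscle, with a median of 9.37, and 10 of them were well above background on all 8 arrays. Cacna1s, the voltage sensor of the transverse tubule, was higher by 11.38 ± 0.42. Ryr1, the calcium release channel it is coupled to, was higher by 9.37 ± 0.16. Hrc, a calcium-binding protein of the sarcoplasmic reticulum, differed by 10.89 ± 0.18. Sln (sarcolipin, an inhibitor of the calcium pump) varied among the muscle arrays: its levels were 1.70, -0.12, -0.70 and 2.01, with arrays 009 and 007 high and 011 and 003 low. It was well above background on 1 gWAT array.

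All 14 genes of the neuromuscular junction and of fibre excitability were higher. Only 6 of the 14 were well above background on all 8 arrays. Genes dim in gWAT entered the test through muscle alone, so the filter favoured this direction. The list median was 5.71, or 4.77 at the bounds, 3.39 with normexp and 3.79 with the authors' series values. Chrna1 and Chrnd, subunits of the acetylcholine receptor, gave at least 230.9-fold and at least 90.46-fold. Kcnj11, the pore of the ATP-sensitive potassium channel, gave at least 192.5-fold. The smallest difference was that of Rapsn (rapsyn, which clusters the receptor), at 0.94 ± 0.14, measured on 3 muscle arrays because the spot of array 007 was an outlier and was left out. It did not pass under median centring (0.46, adjusted p = 0.1437), and with the authors' series values it was at -0.64 (adjusted p = 0.672).

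The transcription factors that set muscle identity were higher in muscle. Myod1 stood at 0.41, 0.90, 0.86 and 0.82 on the muscle arrays and was not well above background on any gWAT array (at least 55.19-fold). Myog (myogenin) gave at least 62.36-fold, Myf6 at least 538.9-fold, and Vgll2, a cofactor of TEAD factors, at least 983.0-fold. Pax7, the factor of muscle stem cells (satellite cells), had levels of -2.27 to -1.56 in muscle and of -7.05 to -3.99 in gWAT, where 1 array was well above background. Of 23 tested regulators and myokines, 17 were higher in muscle and 3 lower, with a median of 3.87, or 2.04 with normexp and 1.93 over the probes above background on all arrays. The 3 lower genes were Metrnl (-2.04 ± 0.13), a secreted factor made by muscle and fat, Eya1 (-0.85 ± 0.20) and Mef2a (-0.90 ± 0.22). Other probes of Mef2a gave 0.29 to 1.19, its mean over probes was 0.19, and with the authors' series values it was at 1.18, so its direction rests on the probe. Il15, Bdnf and Sparc did not pass, at 0.43 ± 0.21, -0.30 ± 0.28 and 0.13 ± 0.17. With the slide as a fixed block Il15 passed as higher (0.76, adjusted p = 0.03375) and Bdnf as lower (-0.83, adjusted p = 0.01801). Il15 also passed with normexp (0.38), with the authors' series values (0.54) and without muscle array 003 (0.59). Bdnf also passed with the scan day as a block (-0.73) and under median centring (-0.76). Sparc was lower by quantile normalization (-0.79) and by the mean of its probes (-0.54). Mstn (myostatin, which limits muscle growth) had levels of 1.48 to 2.29 in muscle and was also measured on all 4 gWAT arrays, at -2.91 to -1.87 (difference 4.35 ± 0.26).

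Upstream sequence was examined for the 75 genes of the contractile and calcium lists that were called higher in muscle. The call chose them, so their shared direction is no result, and list members called lower were left out. Of the 75, 52 matched the RefSeq promoter table (GRCm38.p6), with 63 promoters. The 250 bases before each start were searched on both strands. The E-box CAGCTG, which reads the same on both strands and is the form bound by myogenic factors, was found in 33.3% of these promoters, in 13.7% of 51 promoters of genes of the fat lists that were lower in muscle, and in 13% of all 32851 promoters. The CArG box, bound by serum response factor, was in 14.3%, 1.96% and 1.47%, and the MEF2 site in 6.35%, 0% and 0.508%. The looser E-box CANNTG, which takes in the former, was in 81.0%, 68.6% and 66.2%. Such matches are letters in a window and say nothing of binding. The windows of Acta1 (chr8:123894776-123895025, minus strand) and Myh4 (chr11:67237562-67237811, plus strand) hold the E-box and the CArG box together, in capitals with the TATA box letters TATAAA on either strand.
Acta1: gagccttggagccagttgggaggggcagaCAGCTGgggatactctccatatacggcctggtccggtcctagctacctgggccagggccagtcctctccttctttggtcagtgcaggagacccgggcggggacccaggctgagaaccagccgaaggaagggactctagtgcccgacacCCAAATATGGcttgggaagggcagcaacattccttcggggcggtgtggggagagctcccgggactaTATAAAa
Myh4: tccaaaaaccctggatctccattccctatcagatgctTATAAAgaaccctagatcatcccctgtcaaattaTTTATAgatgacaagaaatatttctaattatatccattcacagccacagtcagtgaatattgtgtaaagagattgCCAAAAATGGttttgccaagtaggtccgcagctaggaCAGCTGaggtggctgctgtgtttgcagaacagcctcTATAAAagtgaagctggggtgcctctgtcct

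Forms of the same protein split between the tissues. Among 29 hand-picked pairs of a muscle-type form and another form of the same protein, 28 could be tested (Ampd1 was not well above background on all arrays of either tissue). In 18 pairs the muscle-type form was higher in muscle and the other form lower, in 4 both were higher, in 5 the muscle-type form was higher and the other did not pass, and in the lipin pair the muscle-type form Lpin1 did not pass (0.27 ± 0.15, or 0.44 by the mean of its probes, adjusted p = 0.01499). Acacb, Cox7a2 and Suclg2, called higher, did not pass under median centring (adjusted p = 0.1795, 0.2272 and 0.1687). For comparison, 36.3% of all genes were higher and 31.7% lower. The count of 18 was the same with each of the 8 arrays left out.

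The pairs reached from ATP buffering to fuel entry. Ckm stood at 9.82, 9.91, 9.79 and 9.81 in muscle and at -4.93, -5.24, -6.04 and -3.56 in gWAT, where 1 array was well above background. Ckb, the form of brain and other tissues, stood at 1.25, 1.04, 1.26 and 1.51 in muscle and at 3.69, 4.17, 3.96 and 3.77 in gWAT. Neither gene overlapped between tissues, and the directions were opposite (14.78 ± 0.45 and -2.63 ± 0.15). Ckmt2, the mitochondrial creatine kinase of muscle, gave the largest bound of all genes, at least 19000-fold. Of 14 genes of the creatine and adenylate buffer, 6 were higher and 5 lower, beside 36.3% and 31.7% of all genes. Their median, 0.10, was close to that of all genes and turned to -0.36 under median centring.

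Glycogen and sugar breakdown showed the same split. Pygm, glycogen phosphorylase of muscle, was higher by 9.37 ± 0.15 and Pygl, the liver form, lower by -3.55 ± 0.26. Pgam2 and Pgam1 (phosphoglycerate mutase) were at 14.65 ± 0.18 and -2.44 ± 0.16, with Pgam2 well above background on 2 gWAT arrays. Pfkm and Pfkl (phosphofructokinase) were at 7.70 ± 0.10 and -2.96 ± 0.16. Of 35 genes of glycogen and glycolysis, 24 were higher and 7 lower. The 7 lower ones were Pygl, Pygb (-2.86), Pfkl, Pfkp (-2.62), Pgam1, Eno1 (-0.85) and Hk3 (-2.63), each a form other than the muscle one. Ppp1r3a, which tethers a phosphatase to glycogen in muscle, gave at least 306.6-fold. Hexokinase 2, the insulin-regulated form, was higher by 1.73 ± 0.17, while Hk1 was at -0.26 ± 0.13 and did not pass. It passed as lower under median centring (-0.72, adjusted p = 0.02288), by quantile normalization (-0.59) and with normexp (-0.43).

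**Figure D3:**
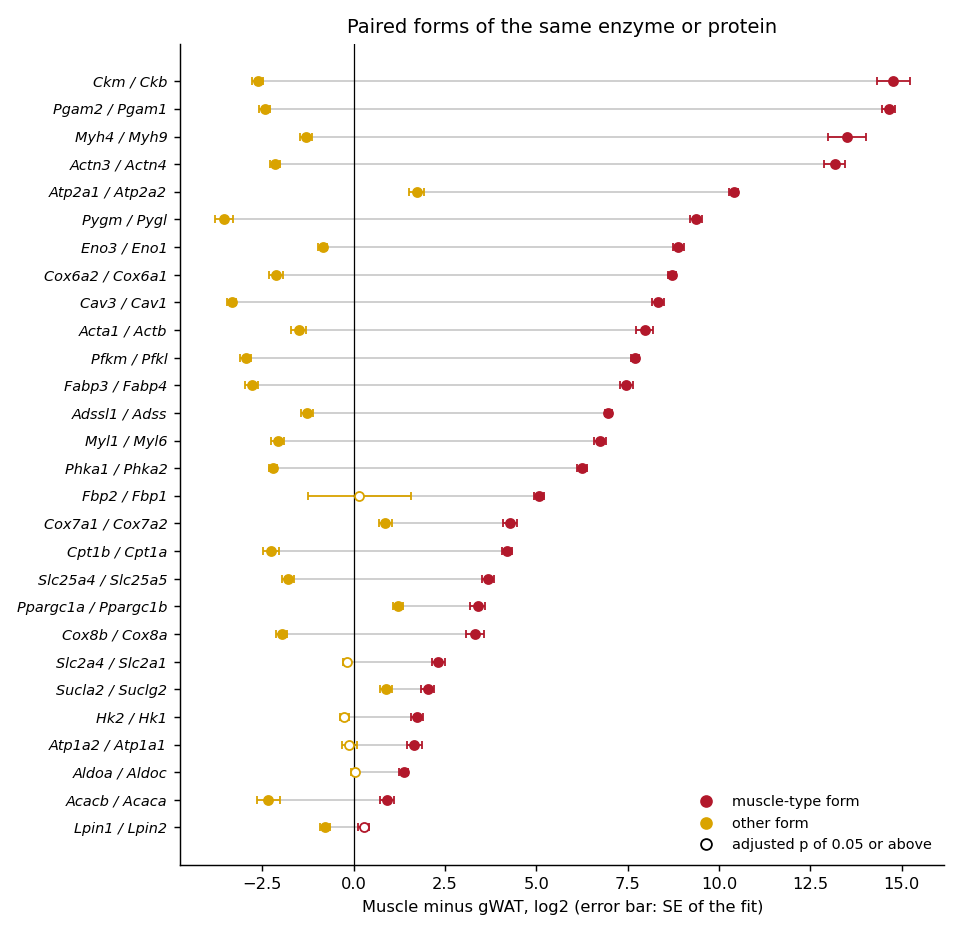
Difference between NZO muscle and NZO gWAT (log2, horizontal axis) for 28 pairs of forms of the same protein, with the SE of the fit; filled points passed an adjusted p of 0.05. In 18 pairs the muscle-type form passed above 0 and the other form below 0.

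Most mitochondrial genes were higher in muscle, by less than the contractile genes. Of 36 respiratory chain genes 34 were higher, with a median of 1.77, and of 18 citric acid cycle genes 16 were higher, with a median of 1.41. Ndufb3 was at -0.13 ± 0.17 and did not pass, and Atp5c1 was lower (-1.43 ± 0.15) by this probe but at 0.20 by the mean of its probes. Forms typical of heart and muscle stood out. Cox6a2 had levels of 9.37, 9.40, 9.11 and 9.42 in muscle and of 0.57, 0.66, 0.46 and 0.75 in gWAT (difference 8.72 ± 0.12), and the general form Cox6a1 was lower by -2.13 ± 0.20. In the cycle, Pcx, which feeds it with oxaloacetate and serves lipid synthesis in fat, was the gene that was lower, at -3.25 ± 0.21, and Idh2 did not pass (0.30 ± 0.22, or 0.48 without muscle array 003, adjusted p = 0.04697).

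Of 24 fatty acid oxidation genes, 9 were higher, 5 lower and 10 did not pass, with a median of 0.21 that turned to -0.25 under median centring. Of all genes, 36.3% were higher and 31.7% lower. The outer members of the list were far apart. Cpt1b, the muscle form of the gate to mitochondria, was higher by 4.20 ± 0.13 and Cpt1a, the liver form, lower by -2.26 ± 0.22. Fabp3 and Fabp4, the fatty acid carriers of muscle and of adipocytes, differed by 7.46 ± 0.18 and -2.80 ± 0.17. The lower genes included Cpt1a, Acsl1 (-1.33), Echs1 and Decr1, the last of which did not pass by the mean of its probes (-0.47, adjusted p = 0.1017).

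The adipocyte genes were lower in muscle. Leptin, the hormone that signals fat stores to the brain, had levels of 5.50, 5.19, 5.09 and 5.49 on gWAT arrays 009, 012, 003 and 007 and of -2.14, -1.17, -0.36 and -2.02 on muscle arrays 009, 011, 003 and 007. The groups were well separated, with muscle array 003 highest (difference -6.74 ± 0.37, adjusted p = 9.726e-07). Adipoq stood at 8.56, 8.22, 8.04 and 8.79 in gWAT and at 3.62, 3.31, 4.41 and 3.71 in muscle. Pparg, the master regulator of fat cells, stood at 6.09, 5.73, 5.98 and 6.09 in gWAT and at 1.44, 1.1, 2.08 and 1.58 in muscle. In all 3 genes array 003 was the highest of the muscle arrays, as it was in the summed adipocyte markers, which include these 3 genes. The part of adipocytes in these muscle levels was not tested.

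Of 20 adipokines and secreted fat proteins, 17 were lower in muscle, with a median of -3.60, and 1 was higher. Npr3, the clearance receptor for natriuretic peptides, was lower by -5.70 ± 0.22 and Fgf10, a growth factor of the fat lineage, by a fitted -5.81 ± 0.38 with 2 muscle arrays well above background. The higher one was Nampt (1.15 ± 0.12), an enzyme of NAD synthesis that is also secreted. Of 30 genes of droplets, storage and lipolysis 23 were lower, with a median of -3.08. Cidec, which fuses droplets into one, was 40.92-fold lower and Mogat2, a triglyceride synthesis enzyme, fell by 6.41 ± 0.27. Adrb3, the adrenergic receptor of adipocytes, was lower by -6.08 ± 0.50. Fitm1, a droplet protein of muscle, was higher by a fitted 11.07 ± 0.33, with 2 gWAT arrays well above background. Plin5, the droplet coat of tissues that burn fat, was at -0.01 ± 0.25, with 4.26 to 5.01 in muscle and 4.08 to 5.04 in gWAT.

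Fat synthesis and uptake genes were lower in 18 of 21 cases and higher in none, with a median of -2.42. Pck1, which supplies glycerol for triglyceride in fat, was lower by -4.24 ± 0.33, the citrate carrier Slc25a1 by -3.95 ± 0.28 and the desaturase Scd1 by -3.89 ± 0.41. Scd1 levels were uneven in muscle, at 4.11, 2.73, 4.34 and 2.50, with arrays 009 and 003 high. Of 16 adipogenic transcription factors 12 were lower, with a median of -1.06, among them Cebpa (-4.49 ± 0.25). The 2 higher factors were Klf5 (3.98 ± 0.17) and Mlxipl (0.63 ± 0.17), the sugar sensor ChREBP. Mlxipl did not pass by the mean of its probes or under median centring (adjusted p = 0.08638 and 0.5876).

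**Figure D4:**
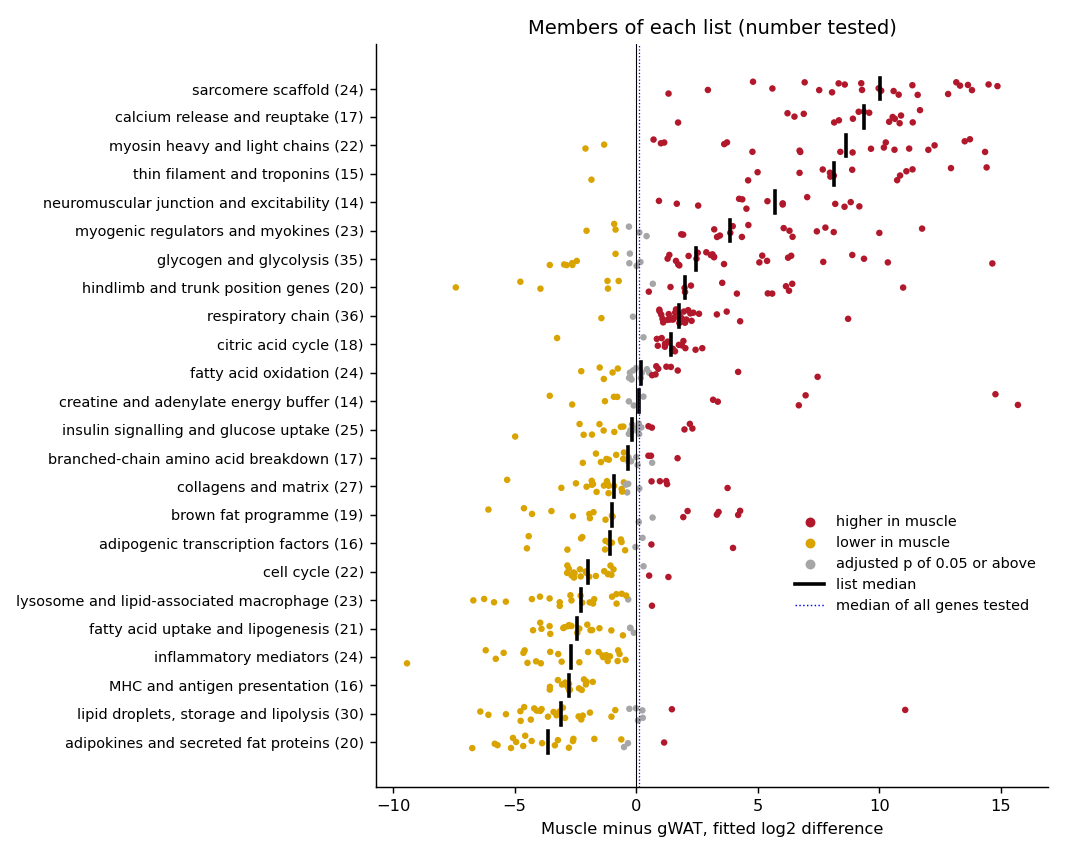
Fitted log2 difference, NZO muscle minus NZO gWAT, for the tested members of 24 gene lists; points are genes, coloured by call, and bars are list medians. Contractile and calcium lists lie to the right, with medians of 8.13 to 10.03, and adipokine and droplet lists to the left, with medians of -3.60 and -3.08, while the median of all genes is 0.11.

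The largest measured decreases took in receptors and immune genes beside the adipocyte genes. Among genes well above background on all 8 arrays the 8 lowest were Oxtr (-6.91, the oxytocin receptor), Lep, Sucnr1 (-6.49, the succinate receptor), Mogat2, Arxes1 (-6.35), Itgax (-6.25), Adam8 (-6.24) and Ccl2 (-6.19). Among genes below background in muscle, the largest bounds were those of Slc5a7 (choline transporter, at least 269.7-fold), Saa3 (serum amyloid A3, at least 267.0-fold), Prr32 (at least 61.79-fold), Rgs1 (at least 50.34-fold), Wt1 (at least 46.63-fold) and Clec4d (at least 36.96-fold).

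Of 19 brown fat genes tested, 6 were higher in muscle, 10 lower and 3 did not pass, beside 36.3% higher and 31.7% lower of all genes. Their median was -1.0, or -0.22 with normexp and -0.42 with the authors' series values. The 6 higher ones were Cpt1b, Cox7a1 (4.28), Cox8b (3.32), Ppargc1a, Esrrg and Pank1, which serve mitochondria in muscle too. Ppargc1a, a coactivator that drives mitochondrial genes, had levels of 2.02, 1.81, 2.13 and 2.02 in muscle and of -1.15, -2.01, -1.43 and -1.0 in gWAT (3.39 ± 0.21). Ucp1, which lets brown fat mitochondria make heat, stood at 3.51, 3.59, 3.77 and 3.96 in gWAT and at 2.72, 0.47, 1.64 and -0.40 in muscle. The groups did not overlap, arrays 009 and 003 were the highest in muscle, and the difference was -2.60 ± 0.59 (adjusted p = 0.004172). NZO brown fat stood at 9.81 ± 0.15 (SD, n = 4) for this probe. Cidea, another gene of thermogenic fat, was likewise highest on muscle arrays 009 and 003 (3.94, 1.70, 2.86 and 1.72) and differed by -1.90 ± 0.50. It did not pass with the slide as a fixed block (adjusted p = 0.1043). The sum of 6 brown adipocyte markers, which include Ucp1 and Cidea, was 23.2, 5.59, 11.5 and 5.38 in muscle and 35.0 to 54.7 in gWAT. Its course over the arrays is therefore not separate from that of these genes. Elovl3, Dio2 and Zic1, also in this list, did not pass. The part of brown adipocytes in the muscle levels was not tested. Ucp2 was lower in muscle by -2.81 ± 0.13. Ucp3, the uncoupling protein of muscle, was at -0.32 ± 0.23 by the probe used, while its other probe gave 2.15 and the mean of both 0.91 (adjusted p = 0.009061).

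Of 25 insulin signalling genes, 5 were higher in muscle, 9 lower and 11 did not pass, with a median of -0.17. Of all genes, 36.3% were higher and 31.7% lower, with a median of 0.11. Slc2a4, the insulin-regulated glucose transporter GLUT4, had levels of 7.29, 7.25, 7.45 and 7.58 in muscle and of 5.21, 4.85, 4.75 and 5.50 in gWAT, a 4.971-fold difference (2.31 ± 0.18, adjusted p = 8.007e-06). Irs1, a docking protein of the insulin receptor, was higher by 2.21 ± 0.18 and Slc2a12 (GLUT12) by 1.99 ± 0.10. Tbc1d1 was higher by 0.65 ± 0.19, a call lost with the mean of probes (adjusted p = 0.08747), under median centring (0.513) and with the slide as a fixed block (0.0568). Trarg1, a regulator of GLUT4 traffic, was lower by -4.98 ± 0.30, and Irs2, Pik3r1 and Pik3cb were lower by -1.51, -2.16 and -2.33. Insr, the receptor itself, was at 0.04 ± 0.13 and did not pass, and its 2 other probes gave -0.57 and -0.54 (mean of probes -0.36, adjusted p = 0.04132).

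Of 17 genes of branched-chain amino acid breakdown, 3 were higher, 8 lower and 6 did not pass. The shares over all genes were 36.3% higher and 31.7% lower. Bckdk, the kinase that switches the pathway off, was higher by 1.70 ± 0.16, and Bckdhb, a subunit of the enzyme it inhibits, was lower by -2.19 ± 0.20. Bckdha, another subunit, and Ppm1k, the phosphatase that opposes the kinase, were higher by 0.61 ± 0.18 and 0.51 ± 0.13. Neither held under median centring (adjusted p = 0.6578 and 0.8821), and Ppm1k was lower by quantile normalization (-0.36).

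Most immune genes were lower in muscle. All 24 inflammatory mediators were lower, with a median of -2.70, or -2.16 at the bounds, while 31.7% of all genes were lower. Of the 24, 16 were well above background on all 8 arrays, and genes dim in muscle entered the test through gWAT alone. The median was -1.14 with normexp, -1.57 with the authors' series values and -1.76 over the probes above background on all arrays. Ccl2, the chemokine that draws monocytes, had levels of 4.52, 5.12, 4.71 and 4.65 in gWAT and of -1.52, -1.90, -1.41 and -0.92 in muscle. Saa3 stood at 3.64, 3.69, 3.66 and 3.44 in gWAT and was not well above background on any muscle array. All 16 antigen presentation genes were lower, with a median of -2.76, among them H2-K1 (-3.55 ± 0.20) and Nlrc5 (-3.55 ± 0.16), an activator of class I genes.

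A list of lysosomal genes and genes of lipid-laden macrophages showed the same direction, with 21 of 23 lower and a median of -2.28. Lpl and Fabp5 of this list also belong to the fatty acid uptake list, so not all its members mark macrophages. Trem2, a lipid receptor of these cells, stood at 5.0, 5.43, 5.10 and 5.02 in gWAT and at -0.30, -0.85, 0.18 and 0.09 in muscle (difference -5.36 ± 0.23, adjusted p = 2.424e-07). Cd68, a macrophage lysosomal protein, was lower by -3.50 ± 0.22. The 1 higher gene was Mitf (0.65 ± 0.12), a lysosomal regulator also known from pigment cells, whose call was lost under median centring (0.19, adjusted p = 0.5145). The markers of macrophages summed to 280 to 323 in gWAT and 62.7 to 90.0 in muscle, with 15 of 17 lower. Itgam (1.69 ± 0.28) went the other way, and its 2 other probes gave -0.46 and 0.92.

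Mast cell markers went the other way. Of 5 tested markers, 4 proteases were higher: Mcpt4 (1.50 ± 0.28), Cpa3 (1.38 ± 0.28), Cma1 (1.20 ± 0.27) and Tpsb2 (0.67 ± 0.16). Neither Cma1 nor Tpsb2 passed under median centring (adjusted p = 0.06604 and 0.4635) or with the slide block (0.06978 and 0.08289). Kit, also a gene of other cells, was lower (-0.49 ± 0.19, adjusted p = 0.04845), a call lost without muscle array 011 (0.111) and with the slide block (0.5739). T cell markers were lower in 4 of 6 cases, beside 31.7% of all genes, and 4 of the 6 were well above background on all 8 arrays. Their median was -2.49, or -0.39 with normexp and -0.57 with the authors' series values. The T cell sums overlapped, at 6.96 to 11.2 in muscle and 5.57 to 10.5 in gWAT. Cd4 was higher (0.89 ± 0.22), though not under median centring (adjusted p = 0.1554) or with the slide block (0.1022). B cell markers were lower in 3 of 5, and their sum was 3.55 to 4.75 on 3 gWAT arrays and 19.5 on gWAT array 012. There Ms4a1 (CD20) stood at 2.25 against -2.73 to -2.16 on the other gWAT arrays.

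Cell cycle genes were lower in muscle in 19 of 22 cases, with a median of -1.98, or -1.27 with normexp and -1.32 with the authors' series values. Mki67, a marker of dividing cells, had levels of 2.17 to 2.78 in gWAT and of -0.70 to 0.58 in muscle. Birc5 and Bub1, genes of mitosis, were lower by -2.83 ± 0.27 and by at least 4.994-fold. Aurka (1.33 ± 0.13) and Rrm1 (0.54 ± 0.11) were the 2 higher genes, the latter not under median centring (0.07).

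Matrix genes fell on both sides: 17 of 27 were lower, 5 higher, and the median was -0.91, or -1.37 under median centring. Mmp12, the macrophage elastase, gave at least 21.46-fold lower, and Postn (periostin) was lower by -3.08 ± 0.58. Col1a1, Col1a2 and Fmod (fibromodulin) were higher, by 1.27 ± 0.15, 1.24 ± 0.17 and 3.76 ± 0.31. Dcn and Mmp2, the other 2 higher genes, were at 0.63 ± 0.18 and 0.98 ± 0.19 and did not pass under median centring (adjusted p = 0.5908 and 0.1171). All 6 tendon markers were higher, with Thbs4 at least 1413-fold and Comp by 6.48 ± 0.25. Of the 6, 3 were well above background on all 8 arrays. The tendon sum was 80.5 to 92.2 on 3 muscle arrays and 137 on array 007, which also had the highest Fmod and Tnmd.

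Markers of mesothelium, the lining of the abdominal cavity, were higher in gWAT: 7 of 8 were lower in muscle, with Wt1 (levels 0.67 to 1.11 in gWAT) and Upk3b (-0.36 to 0.15) not well above background on any muscle array. Only 3 of the 8 were well above background on all 8 arrays. Genes dim in muscle entered the test through gWAT alone, so the filter favoured this direction. Krt18 was at 0.51 ± 0.64, did not pass, and ranged from -0.35 to 2.48 in muscle. With the slide as a fixed block it was at 1.82 (adjusted p = 0.004409). Of 7 satellite cell markers 5 were higher, with Cdh15 (M-cadherin) at least 192.5-fold. Only 3 of the 7 were well above background on all 8 arrays, and over such probes the list median of 3.45 turned to -0.48. Vcam1 and Sdc4, which other cells make too, were lower, but the call of Sdc4 was lost in 8 alternatives, among them the slide block (adjusted p = 0.122). Of 7 Schwann cell and nerve markers 4 were higher and 3 lower, beside 36.3% and 31.7% of all genes. Prx was higher by 3.45 ± 0.24, whereas Mbp was at -3.56 ± 0.15 by the probe used and from -3.02 to 2.36 by the others. Of 10 endothelial markers 8 did not pass, and the median of 0.09 turned to -0.37 under median centring. Erythroid genes did not pass in 5 of 6 cases.

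Of the 8 liver genes 7 did not pass, and the median of 0.20 turned to -0.26 under median centring. Albumin ranged from -0.23 to 5.23 over the muscle arrays and from -0.50 to 4.68 over the gWAT arrays, so the arrays of each tissue differed widely. Cyp2e1, which adipocytes express as well, was lower in muscle (-2.49 ± 0.74). Of 10 genes of epididymis and male gonad, 3 were tested, and the others were not well above background on all arrays of either tissue. All 3 were higher in muscle: Adam7 by at least 12.45-fold, Lcn8 by at least 5.115-fold and Prm1 by 1.65 ± 0.41. Adam7 and Lcn8 entered the test through muscle alone, so the filter favoured this direction. No gene of that list was well above background on all gWAT arrays without being so in muscle.

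Genes that mark position along the body went both ways. Of 20 tested, 13 were higher in muscle and 6 lower, beside 36.3% higher and 31.7% lower of all genes. Only 9 of the 20 were well above background on all 8 arrays. The list median was 2.0, or 1.88 at the bounds, 0.98 with normexp and 0.69 over the probes above background on all arrays. Tbx15, a trunk and limb factor, had levels of 3.67, 3.82, 3.52 and 3.62 in muscle and was not well above background on any gWAT array (at least 415.0-fold). The hindlimb factors Pitx1 and Tbx4 gave at least 9.287-fold and 15.64-fold, and the posterior genes Hoxa10 and Hoxc11 at least 28.24-fold and 20.06-fold. Tcf21, a factor of visceral mesoderm, was at least 10.78-fold lower in muscle. Hoxc8 was lower by a fitted -3.94 ± 0.24, with 3 muscle arrays well above background. Ifi202b, an interferon-induced gene known to differ between these strains, was lower in muscle by -1.58 ± 0.23. Its call was lost when all 24 arrays were fitted together (adjusted p = 0.2396).

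The tissue difference was then compared between strains, as NZO minus B6, over 16 arrays. Of 22881 genes 3129 (13.7%) were called, 1506 with a higher difference in NZO (6.58%) and 1623 with a lower one (7.09%). With the slide as a fixed block 191 genes were called, 184 of them shared. B6 muscle array 011 stood apart from the other B6 muscle arrays: Trem2 was at 3.59 there and at -1.63 to -0.99 on the others, and Cd68 at 3.35 against 0.56 to 0.86. Without it 3800 genes were called, and without B6 gWAT array 011 there were 2163.

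Ucp1 had the opposite tissue difference in B6, where muscle stood at 4.91, 4.57, 3.34 and 0.59 and gWAT at -3.98, -4.80, -4.22 and -3.33. The B6 difference was 7.44, against -2.60 in NZO, an interaction of -10.04 ± 1.14 (adjusted p = 0.0001103). It was -9.63 without B6 muscle array 011, -7.70 with the slide block (adjusted p = 0.04142) and -8.28 on slide 4, which held 1 array of each of the 4 groups. The strains differed more in gWAT, where means were 3.71 and -4.08, than in muscle, where they were 1.11 and 3.35. Cidea and Otop1 showed the same pattern, with interactions of -5.21 ± 0.90 and -6.10 ± 0.78. With the slide block Otop1 passed (adjusted p = 0.04425) and Cidea did not (0.1976). A second probe of Otop1 gave 1.21 in NZO, against -3.48 by the one used.

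Among macrophage genes, the tissue difference of Gpnmb, Trem2 and Cd68 was lower in NZO than in B6, and that of Itgam was higher (interaction 1.13), a call lost without B6 muscle array 011 (adjusted p = 0.06983). The tissue difference of Gpnmb was -5.84 in NZO and 0.71 in B6 (interaction -6.56 ± 0.98, adjusted p = 0.0008445). B6 muscle array 011 was at 1.94 and the other B6 muscle arrays at -2.12 to -1.83, and the interaction was -5.59 without it. For Trem2 the interaction was -4.48 ± 1.18, or -3.24 without that array, and for Cd68 it was -2.73 ± 0.65, or -2.07. None of the 3 passed with the slide block (adjusted p = 0.1305, 0.4792 and 0.3987). Atp1a4, a sodium pump subunit, was at 4.54 to 5.63 in NZO gWAT and -1.34 to -0.40 in B6 gWAT (interaction -5.37 ± 1.1, slide block adjusted p = 0.27). It stood at 2.96 on B6 muscle array 011 and at -1.82 to -1.25 on the other B6 muscle arrays, and the interaction was -4.25 without that array. Tceal5 was higher in muscle in both strains, by 1.84 in NZO and 7.30 in B6 (interaction -5.47 ± 0.56, slide block adjusted p = 0.01208).

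In the other direction, Alkal2 was at -3.81 to -3.19 in NZO gWAT and 0.42 to 0.62 in B6 gWAT. Its tissue difference was 1.15 in NZO and -3.67 in B6 (interaction 4.82 ± 0.48). The call of the NZO difference was lost under median centring (adjusted p = 0.08978) and quantile normalization (0.06717). It was also lost with the slide (0.1695) or the scan day (0.06826) as a fixed block. Klhdc9 levels showed the same pattern (interaction 4.72 ± 0.36). Both interactions passed with the slide block (adjusted p = 0.04277 and 0.007941). Ptgds (4.20 ± 1.1) and Inmt (3.94 ± 0.69) did not (0.07623 and 0.128). Krt18 passed (3.93 ± 1.00, slide block adjusted p = 0.03045). Among genes of fuel use, Ppargc1a differed by 1.45 ± 0.33, which the slide block did not keep (1.03, adjusted p = 0.3255). Myh1, which was well above background on 1 NZO gWAT array, differed by 2.64 ± 0.79. It did not pass without B6 muscle array 011 (adjusted p = 0.06015) or with the slide block (0.3177).

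**Figure D5:**
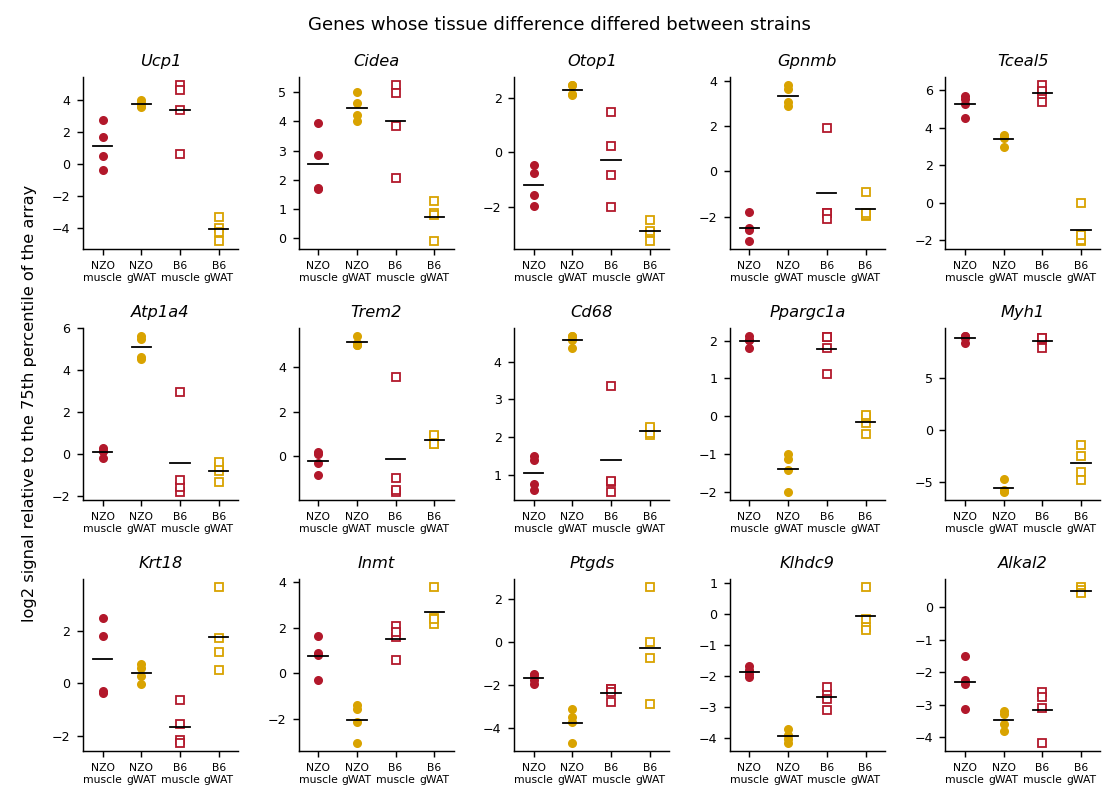
Levels of 15 genes whose tissue difference differed between strains, as log2 signal minus that of the 75th percentile of each array, on the 4 arrays of each of NZO muscle, NZO gWAT, B6 muscle and B6 gWAT; bars are means and each panel has its own vertical scale. For Ucp1 the NZO gWAT arrays lie at 3.51 to 3.96 and the B6 gWAT arrays at -4.80 to -3.33.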

How the data were processed

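The authors' deposited files held spot intensities of single-colour 60-base arrays. Per the file headers, scanning output came from Feature Extraction 11.0.1.1, an Agilent program (the submitters' processing notes name 9.1), and other columns flag spots well above background. The processed intensity was background-subtracted by that program. Members and lists were chosen with earlier results of these data known. Further list members were named after their values were seen. Outlier spots were left out. Some list members are not reported here. A probe was tested where well above background on all 4 arrays of a tissue, and a gene was read by its tested probe of highest mean level across the 24 arrays. Names came from RefSeq (GRCm38.p6) for 27656 of 55681 probes. Tests used limma 3.58.1 in R 4.3.3 (lmFit, eBayes) with Benjamini-Hochberg adjustment, and steps were tested on simulated data. A bound divides the brighter mean by the higher of the dim probe's signal and the lowest signal well above background. Genes named were the 8 highest and 8 lowest differences, the 6 largest bounds each way, up to 3 called members of each list with the largest differences, isoform pairs, the 5 largest interactions each way, and a set of genes fixed by name.
The number of arrays limits the precision (median SE 0.175). Alternatives were other scalings, filters, probe rules and blocks, arrays left out in turn, and scan day as a block, which was added after seeing the data. The authors' deposited series values equalled the mean median-signal intensity of the spots of each transcript identifier, not background-subtracted; they were put on a log2 scale. The numbers in titles were not used to pair the samples in the main fit, and whether they mark the same animal is not known. Figures used matplotlib 3.10.9.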

Additional observations from a re-analysis of the deposited data

Results flagged for a closer look

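In 14 of 356 groups of 4 arrays (178 genes named, 2 tissues) 1 array lay far from the other 3, and chance gives about 1 in 20. Muscle array 003 was high for Saa3 (-4.17, next -6.30) and Npr3 (-1.01, next -1.73) and low for Idh2 (5.48, next 6.16). Muscle array 007 was high for the tendon genes Fmod (4.82) and Tnmd (2.80) and for Tcf21 (-4.65). Muscle array 009 was low for Myod1 (0.41) and high for Mitf (2.97), and muscle array 011 was low for Hoxc8 (-4.69). Among the gWAT arrays, 012 was high for Ms4a1 (2.25) and Myh1 (-4.72), 007 for Hoxa10 (-5.53) and 009 for Myod1 (-6.88), and 003 was low for Il15 (-2.32). The Saa3 and Tcf21 values in muscle and the Myh1, Hoxa10 and Myod1 values in gWAT belong to probes at or near background.

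For 42 of the 178 genes the tissue difference, muscle minus gWAT, itself differed between NZO and B6 (limma interaction, adjusted p under 0.05). Of the 42, 28 were lower in NZO. Over all genes tested 13.7% were called, 6.58% with a higher difference in NZO and 7.09% with a lower one. The genes named include those chosen for their interaction or for large NZO tissue differences, which enter the interaction. These counts therefore reflect the choice of genes as well. With the slide as a fixed block 12 of the 42 passed and 30 did not. Macrophage and immune genes with a lower difference in NZO were Gpnmb (-6.56), Rgs1 (-6.74), Mmp12 (-6.29), Adam8 (-4.81), Clec4d (-4.71), Trem2 (-4.48), Itgax (-4.47), Ccl2 (-4.22) and Cd68 (-2.73). Without B6 muscle array 011 they were at -5.59 for Gpnmb, -5.33 for Rgs1, -5.67 for Mmp12, -3.78 for Adam8, -3.93 for Clec4d, -3.24 for Trem2, -3.47 for Itgax, -2.94 for Ccl2 and -2.07 for Cd68, and each still passed. Of these, Mmp12 passed with the slide block (adjusted p = 0.03543). Thermogenic and mitochondrial genes that were lower were Ucp1 (-10.04), Otop1 (-6.10), Cidea (-5.21), Cpt1b (-3.24), Fabp3 (-3.00), Cox6a2 (-2.98), Cox7a1 (-2.11), Plin5 (-1.92), Cox8b (-1.78) and Bckdhb (-0.97). Ucp1, Otop1 and Cpt1b passed with the slide block, Cpt1b with an adjusted p of 0.01384. Among growth and muscle regulators, Mstn was at -4.84 (slide block adjusted p = 0.004897), Metrnl at -1.79, Mef2a at -1.28 and Eya1 at -1.08. Aurka was at -1.60 and Rrm1 at -0.79. Slc5a7 was at -8.69, Tceal5 at -5.47 and Atp1a4 at -5.37. Without B6 muscle array 011 Slc5a7 was at -6.59 and Atp1a4 at -4.25. The values of Rgs1, Mmp12, Clec4d, Slc5a7, Lcn8 and Myh3 are fitted and no measured sizes, since their probes were not well above background on any NZO array of 1 tissue. That of Mstn also rests on a probe well above background on 12 of the 16 arrays.

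Higher differences in NZO were seen for Alkal2 (4.82), Klhdc9 (4.72), Ptgds (4.20), Inmt (3.94), Krt18 (3.93) and Lcn8 (3.82, slide block adjusted p = 0.009895). Smaller ones were those of Myh1 (2.64), Pgam2 (2.24), Actn3 (1.76), Kit (1.75), Myh3 (1.56), Ppargc1a (1.45), Itgam (1.13) and Suclg2 (0.79). Of these smaller ones only that of Kit passed with the slide block (adjusted p = 0.01846). Actn3 was at -0.09 on slide 4. Calls of Myh1, Myh3, Itgam and Bckdhb were lost without B6 muscle array 011 (adjusted p = 0.06015, 0.05637, 0.06983 and 0.0555).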

How the results depend on the processing

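Of 166 called genes named, 139 kept direction and call in all alternatives run for them, and 27 did not in at least 1. With only probes above background on all arrays, 136 of the 178 genes named could be fitted. The cause was not tested except where fewer or more genes entered. Genes called higher in muscle numbered 4359 under median centring and 13402 with no filter on dim probes, which lets 34947 genes in. Genes called at 4-fold or more numbered 1931 with normexp (941 higher, 990 lower), 2205 with the authors' series values (1206 and 999) and 2480 with only probes above background on all arrays (1197 higher). At 2-fold there were 9129 and at 8-fold 1852. The strain interaction gave 191 genes with the slide as a fixed block.

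Leaving out each array gave 13640 to 14498 called genes, 7195 to 7854 higher and 6445 to 6755 lower. At 4-fold there were 3744 to 4038, with 1915 to 2144 higher and 1829 to 1977 lower. The isoform pairs stayed at 18, and the interaction gave 2163 to 3800 genes. With normexp some of the list medians that the text gives moved by over 1.5 times. They came to -1.14 for inflammatory mediators, 6.68 for the sarcomere scaffold, 3.39 for the neuromuscular junction and 2.04 for myogenic regulators. Position genes came to 0.98, cell cycle to -1.27, brown fat genes to -0.22, satellite cell markers to 1.03 and T cell markers to -0.39. Among medians near 0, the energy buffer came to 0.01, fatty acid oxidation to 0.04 and liver to 0.10. The endothelial median turned to -0.025.

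Directions turned for Sparc (-0.79) and Ppm1k (-0.36) by quantile normalization, and for Rapsn (-0.64) and Mef2a (1.18) with the authors' series values. By the mean of probes they turned for Ucp3 (0.91), Insr (-0.36), Myh9 (0.21), Tpm3 (3.19), Mef2a (0.19), Sparc (-0.54) and Atp5c1 (0.20). The interaction turned for Mef2a (0.11, authors' series values) and Itgam (-0.009, mean of probes).

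Replicate numbers 009, 003 and 007 occur in both tissues. Deviations of same-numbered arrays correlated at 0.13, -0.15 and 0.00, and those of differently numbered arrays at -0.35 to 0.28. Such correlations between tissues cannot decide whether a number marks the same animal. With the replicate block 12498 genes were called, 82.9% of the main calls among them. The block ended calls of Ucp1 (-2.43, adjusted p = 0.06063), Cidea (0.0775), Cma1 (0.07777), Tpsb2 (0.08208), Mlxipl (0.07984), Alkal2 (0.1041), Tbc1d1 (0.05419), Bckdha (0.07771), Dcn (0.08717) and Kit (0.2932) in limma. Low signals near background limit the sizes given as bounds.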
